A study of Sus scrofa with 20 samples.

Results

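A set of 10 genes of iron uptake, storage and regulation was selected by name, and 9 of them were matched to a pig Ensembl gene identifier among the 31907 genes of the count table: TF, TFRC, TFR2, HAMP, SLC40A1, FTL, CP, HPX and HMOX1. FTH1, the ferritin heavy chain, had no Ensembl identifier in the sources used here and its counts were not analysed here. RNA-seq was performed on backfat, the fat layer beneath the skin of the back, and on liver of 5 Nanchukmacdon boars, a Korean pig breed, which gave 5 libraries per tissue. According to the sample labels the animals were 22 months old, their disease state was normal, and no treatment or genetic change is named for either tissue. The libraries are named by tissue and by the number in the table's columns (65, 67, 69, 71 and 72). This number was taken as that of the boar, so that each boar gave 1 backfat and 1 liver library. Both tissues hold several cell types, and in such bulk samples fewer cells of a type cannot be told apart from less RNA per cell.

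Iron travels in plasma bound to transferrin (TF), and cells take it up through the transferrin receptor TFRC. Inside cells it is kept in ferritin shells built of heavy (FTH1) and light (FTL) chains, and it leaves through the exporter ferroportin (SLC40A1), helped by the copper oxidase ceruloplasmin (CP). Hepcidin (HAMP), a peptide hormone made mainly by hepatocytes, binds ferroportin and causes its removal, and hepatocytes use the second receptor TFR2 in the control of HAMP. Heme set free in plasma is bound by hemopexin (HPX), and heme oxygenase 1 (HMOX1) releases iron from heme inside cells. The liver is known as the main source of the plasma proteins among these genes and as the main store of iron.

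Several of these mRNAs carry an iron-responsive element (IRE), a short hairpin bound by the iron regulatory proteins ACO1 and IREB2 when iron is low. Bound in the 5′ UTR it blocks translation, as in ferritin and ferroportin, and bound in the 3′ UTR it protects the mRNA from decay, as in TFRC. The sequences are shown because this control acts on protein output or on mRNA stability, and only mRNA was measured. The transcripts of RefSeq on Sscrofa11.1 were searched, on the transcribed strand, for a bulged C, 5 bases, the loop CAGTGN and 5 bases that pair with the first 5 (G:T pairs allowed). A match was present in the 5′ UTR of 70 of 18350 genes (0.381%) and in the 3′ UTR of 126 of 18773 genes (0.671%). Among the listed genes and the 6 lists of other iron genes described further on, it was present in FTH1, FTL and SLC40A1, in each case in the 5′ UTR. The 3 elements follow 5′ to 3′ with the loop in capitals, at chr2:9535176-9535202 on the plus strand, chr6:54231195-54231221 on the plus strand and chr15:94161661-94161687 on the minus strand.
FTH1: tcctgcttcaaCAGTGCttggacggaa
FTL: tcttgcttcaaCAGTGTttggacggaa
SLC40A1: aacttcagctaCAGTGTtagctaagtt

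The RefSeq model of TFRC ends without a 3′ UTR (2383 exon bases, against 5643 in the length column of the count table), so the 3000 genomic bases after its end were searched with the same pattern. These held 4 matches, whereas 330 of 20636 genes (1.60%) had any match in such a window. They are located at chr13:133998467-133998493, chr13:133998877-133998903, chr13:133998942-133998968 and chr13:133998989-133999015, all on the plus strand, and follow in that order with the loop in capitals.
TFRC site 1: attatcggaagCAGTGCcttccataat
TFRC site 2: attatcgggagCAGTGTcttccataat
TFRC site 3: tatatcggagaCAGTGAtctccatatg
TFRC site 4: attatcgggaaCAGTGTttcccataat
A match is a description of letters and not evidence of binding.

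Counted read pairs per library ranged from 45157114 to 61772737 in backfat (median 48502902) and from 43820042 to 53768601 in liver (median 48821039). Marker levels are in CPM (counts scaled to the total of the library). The 7 adipocyte markers summed to between 14677 and 20872 CPM in backfat and to between 170 and 907 in liver. Most of these liver sums was PCK1, at 162 to 899 CPM, and ADIPOQ was at no more than 0.0558 CPM in liver. The 8 hepatocyte markers summed to between 21958 and 91169 CPM in liver and to between 200 and 713 in backfat. The liver library of boar 67 had 44.5% of its counts on the mitochondrial genome and the lowest hepatocyte sum of the liver. The backfat library of boar 69 had the highest hepatocyte sum of the backfat, followed by 293 CPM in the next, and none of the other backfat libraries had more than 0.479 CPM of ALB (albumin), which was at 44.6 CPM there. Most of the hepatocyte sums in backfat was APOA1, an apolipoprotein, at 198 to 591 CPM. The other 7 hepatocyte markers summed to 122 CPM in backfat of boar 69 and to between 1.35 and 2.42 CPM in the other 4. Of the 8 hepatocyte markers, AHSG, APOH and CPS1 were at 0 in at least 1 backfat library.

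All 9 genes were more abundant in liver than in backfat. Levels are CPM after scaling by TMM, and differences are log2 fold changes of backfat over liver from the quasi-likelihood test of edgeR, so that a negative value means higher in liver. A differentially expressed gene (DEG) had an FDR (Benjamini-Hochberg over the 16275 genes tested) no higher than 0.05 and a log2 fold change of 2 or more in size. Of the 9 genes, 7 were DEGs higher in liver (77.8%), against 11.2% of all genes tested, and none was a DEG higher in backfat, against 11.1% of all genes. At the FDR threshold alone 9 of 9 were higher in liver, against 27.0% of all genes, and none was higher in backfat, against 28.0%. No gene of the 9 had a higher estimate in backfat, at any p-value, by edgeR, DESeq2 or limma-voom. The median log2 fold change of the 9 genes was -4.84 and that of all genes tested 0.000140. None of the 9 genes was lost to the filter on low counts, and in none of them did the backfat range overlap the liver range. The share of all genes tested without such overlap was not counted, so this says nothing particular about the 9 genes.

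**Figure D1:**
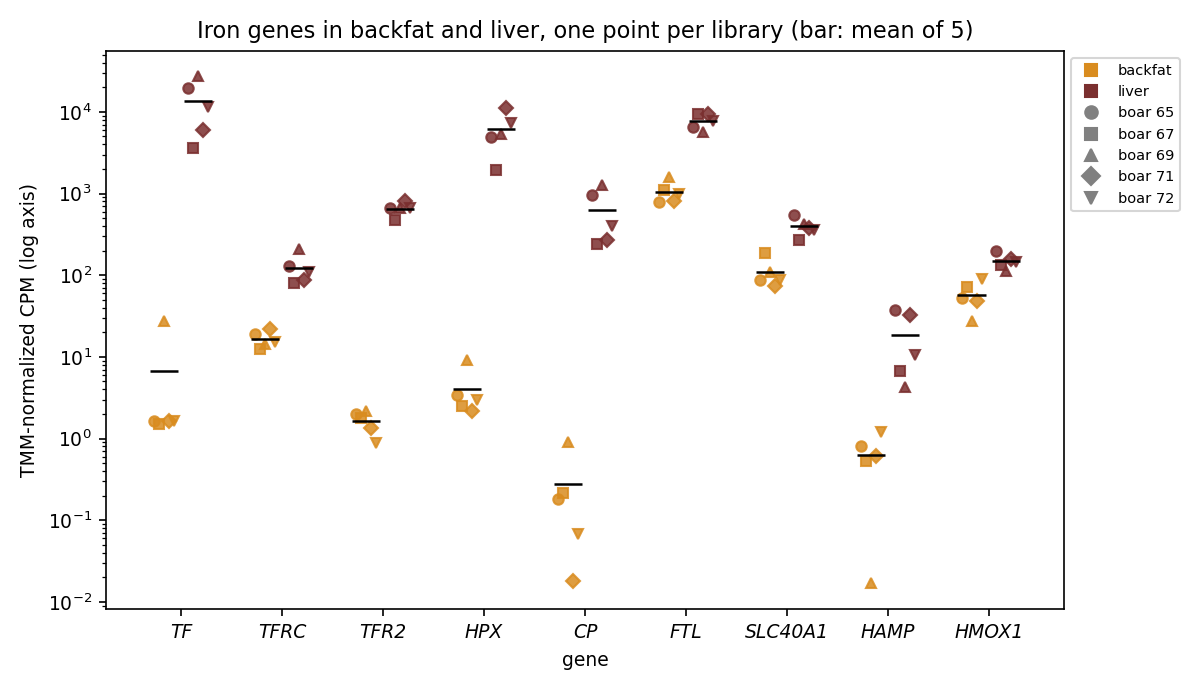
Levels of the 9 genes in every library, in TMM-normalized CPM on a log axis, with backfat in orange and liver in brown, 1 symbol per boar and a bar at the mean of 5 libraries. TF, HPX, CP and TFR2 differ most between the tissues, and the backfat library of boar 69 stands above the other 4 for TF, HPX and CP.

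The plasma carriers TF, HPX and CP showed the greatest distance between the tissues. TF, encoding transferrin (ENSSSCG00000011640), was at 19561, 3629, 27391, 6078 and 11328 CPM in the liver of boars 65, 67, 69, 71 and 72 and at 1.64, 1.53, 27.5, 1.66 and 1.63 CPM in their backfat. In backfat, 4 libraries lay between 1.53 and 1.66 CPM and that of boar 69 was far above them, while the liver libraries spread over 7.55-fold, or 4.51-fold without that of boar 67. The log2 fold change was -10.97 (SE 1.43, FDR = 3.34e-05), and -13.03 (SE 0.92) without the backfat library of boar 69. TF took 1.14% ± 0.924 (SD, n = 5) of all counts in liver. RefSeq names a pair of neighbouring genes TF on chromosome 13, chr13:74862502-74907059, described as porcine inhibitor of carbonic anhydrase, and chr13:74930655-74970599, described as transferrin. Which of them the Ensembl gene stands for was not settled, and reads shared by such close relatives may be divided between them.

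HPX (ENSSSCG00000014626, chr9:3288288-3297051), encoding the heme scavenger hemopexin, was at 4879, 1915, 5325, 11221 and 7273 CPM in liver and at 3.44, 2.49, 9.20, 2.18 and 2.93 CPM in backfat, in the same order of boars. The backfat library of boar 69 was again the highest, and in liver boar 71 was the highest and boar 67 the lowest. The log2 fold change was -10.56 (SE 0.81, FDR = 3.42e-07), and -11.11 (SE 0.71) without the backfat library of boar 69. CP (ENSSSCG00000011700, chr13:89396713-89463540) was at 954, 242, 1270, 269 and 395 CPM in liver and at 0.180, 0.214, 0.908, 0.0180 and 0.0686 CPM in backfat, where between 1 and 54 read pairs were counted. The log2 fold change was -11.13 (SE 1.04, FDR = 1.88e-06), or -12.25 (SE 0.94) without the backfat library of boar 69. With both that library and the liver library of boar 67 left out, an alternative chosen after the data were seen, the log2 fold changes were -13.28 for TF, -11.34 for HPX and -12.45 for CP.

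In the backfat library of boar 69 the plasma carriers were counted beside ALB in proportions unlike those of other backfat libraries. It held 0.757 TF counts per ALB count, against 4.35 to 13.1 in the other 4 backfat libraries and 0.824 in the liver of the same boar. The corresponding values for HPX were 0.253, 7.09 to 17.3 and 0.160, and those for CP were 0.0250, 0.143 to 0.609 and 0.0382. The other 4 backfat libraries held only 7 to 28 ALB counts and 1 to 16 CP counts, against 2162 ALB counts in that of boar 69. Their ratios are therefore imprecise. TFR2 and HAMP did not stand apart upwards there, with 2.19 CPM of TFR2 against at most 2.02 in the others, and 0.0168 CPM of HAMP, a single read pair, which was the lowest of the backfat. In the liver of the same boar TFR2 was at 661 and HAMP at 4.27 CPM, against 27391 CPM of TF. With levels so far below TF, the comparison cannot tell whether TFR2 and HAMP shared in the rise. The part of the hepatocyte markers in these values was not tested.

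**Figure D2:**
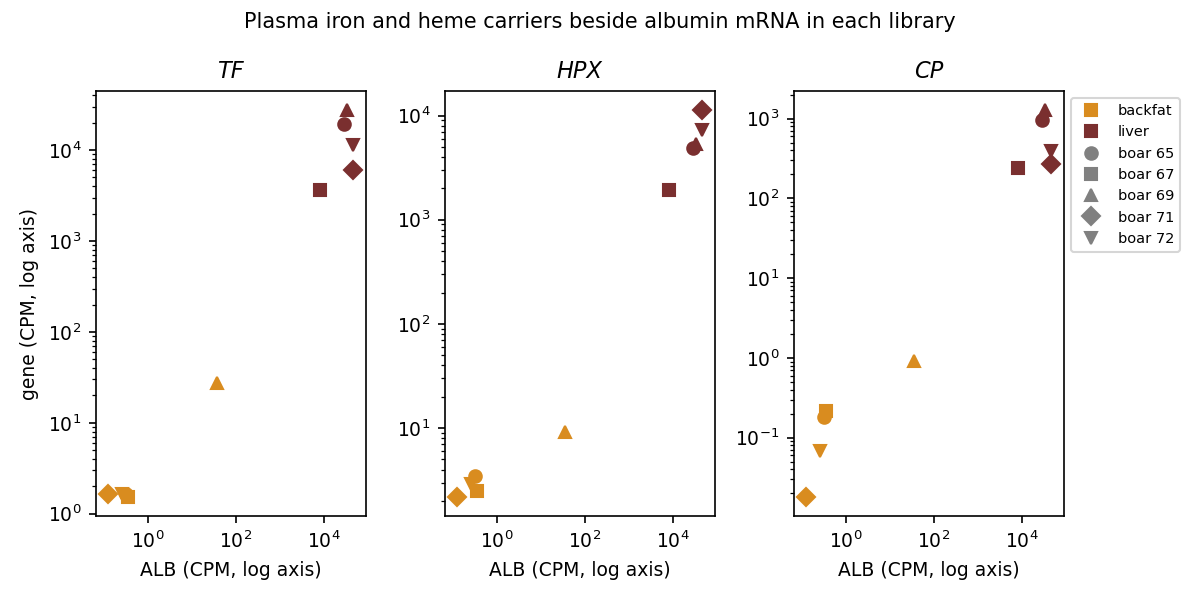
Level of TF, HPX and CP against that of ALB in each library, in TMM-normalized CPM on log axes, with 1 symbol per boar. The backfat library of boar 69, at 36.4 CPM of ALB, lies between the other 4 backfat libraries and the liver libraries.

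The transferrin receptors differed from each other in how far they were apart between the tissues. TFRC (ENSSSCG00000011848, chr13:133976765-133997554), the uptake receptor present on most cells, was at 131, 81.4, 210, 88.3 and 110 CPM in liver and at 19.1, 12.6, 14.3, 21.9 and 15.4 CPM in backfat. All liver libraries lay above all backfat libraries, by at least 3.72-fold, and the log2 fold change was -2.90 (SE 0.28, FDR = 2.64e-06). TFR2 (ENSSSCG00000007671, chr3:8539316-8553993), the iron sensor of hepatocytes, was at 659, 476, 661, 816 and 657 CPM in liver and at 2.02, 1.78, 2.19, 1.35 and 0.875 CPM in backfat. It had the least relative spread of the 9 genes in liver, with a coefficient of variation (SD over mean) of 0.184, and a log2 fold change of -8.63 (SE 0.36, FDR = 4.15e-09).

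The balance of both receptors was therefore opposite in the tissues when counts were set against each other within a library, which needs no scaling between libraries. There were 9.41, 7.03, 6.52, 16.1 and 17.4 TFRC counts per TFR2 count in backfat of boars 65, 67, 69, 71 and 72, and 0.199, 0.171, 0.318, 0.108 and 0.168 in liver. TFRC exceeded TFR2 in each backfat library and TFR2 exceeded TFRC in each liver library. On the log2 scale the ratio was 3.38 ± 0.66 (SD, n = 5) in backfat and -2.46 ± 0.56 in liver, a difference of 5.84 (exact two-sided permutation test, p = 0.00794, which is the least that 5 against 5 libraries can give, and 0.0238 after Benjamini-Hochberg adjustment over 3 ratios). The ratio was higher in backfat in 5 of 5 boars, and an exact sign-flip test on the boar pairs gave p = 0.0625, the least that 5 pairs can give.

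**Figure D3:**
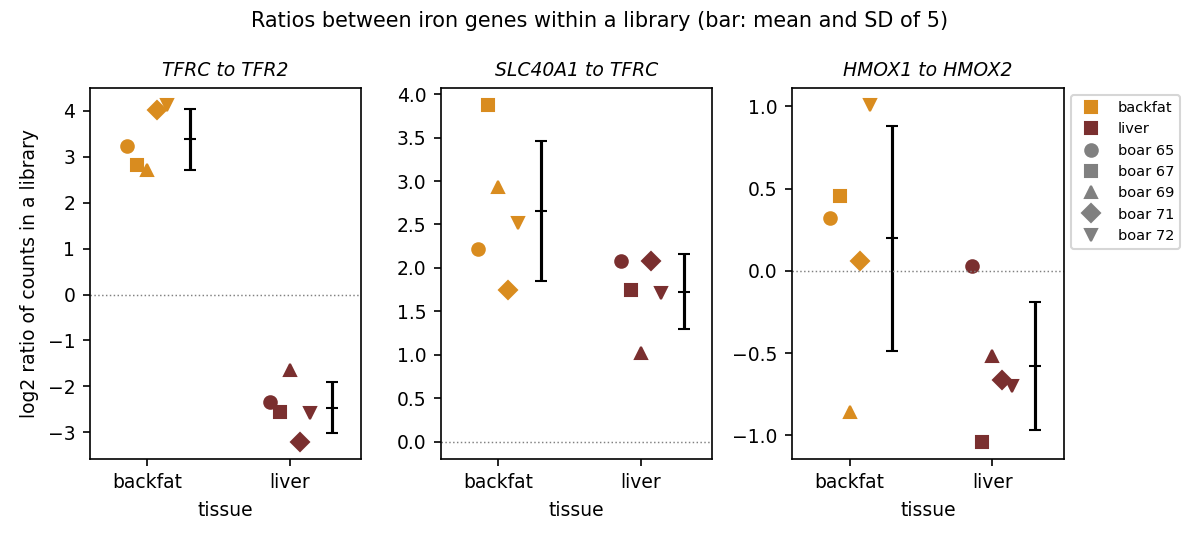
Log2 ratios of the counts of gene pairs within each library, with 1 symbol per boar and the mean and SD of 5 libraries per tissue as black bars. Backfat and liver are apart for TFRC to TFR2 and overlap for SLC40A1 to TFRC and for HMOX1 to HMOX2.

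FTL (ENSSSCG00000003153, chr6:54231121-54232756), encoding the ferritin light chain, was well expressed in both tissues. It was at 785, 1093, 1601, 815 and 982 CPM in backfat and at 6547, 9382, 5647, 9299 and 7773 CPM in liver. The tissues were apart by at least 3.53-fold, with a log2 fold change of -2.87 (SE 0.40, FDR = 5.43e-05). When scaled by library size only, which moved the median of all genes by 0.71, the log2 fold changes of FTL and TFRC were -2.14 and -2.23, closer to the threshold of 2. FTL took 0.593% ± 0.0649 (SD, n = 5) of all counts in liver and 0.135% ± 0.0388 in backfat.

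SLC40A1 (ENSSSCG00000027157, chr15:94140635-94161793), encoding ferroportin, was at 551, 272, 427, 373 and 361 CPM in liver and at 88.5, 185, 109, 73.3 and 88.5 CPM in backfat. The highest backfat library, of boar 67, came within 1.47-fold of the lowest liver library, which was of the same boar, or within 2.50-fold without that backfat library. The log2 fold change of -1.87 (SE 0.29, FDR = 0.000142) passed the FDR threshold but was smaller than 2. Without the backfat library of boar 67 it was -2.14 and without the liver library of boar 67 it was -2.01, so that SLC40A1 became a DEG in either case. When scaled by library size only it was -1.17 (FDR = 0.00737). The 7 macrophage and Kupffer cell markers, cells in which ferroportin is known to be abundant, summed to between 253 and 538 CPM in backfat and to between 411 and 547 CPM in liver. These sums are scaled to the library total without TMM, unlike the levels of SLC40A1, so their ranges and orders are not comparable with those levels. The TMM factors were 1.18 to 1.44 in backfat and 0.649 to 0.916 in liver, so TMM would lower the backfat sums and raise the liver sums. Single markers went different ways, with CSF1R at up to 212 CPM in backfat and 115 in liver, and MARCO at up to 5.96 and 46.9. CD163, VSIG4, C1QA and TIMD4 also reached higher values in liver, and CD68 slightly higher ones in backfat. Close sums therefore do not show a like share of these cells. The part of these markers in the difference was not tested.

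Ferroportin counts per TFRC count, the exporter over the uptake receptor, were 4.65, 14.7, 7.63, 3.35 and 5.74 in backfat and 4.21, 3.34, 2.03, 4.23 and 3.26 in liver. SLC40A1 exceeded TFRC in all 10 libraries, and the ranges of the tissues overlapped. On the log2 scale the ratio was 2.66 ± 0.81 (SD, n = 5) in backfat and 1.72 ± 0.43 in liver, a difference of 0.93 (exact two-sided permutation test, p = 0.0317 and 0.0476 after adjustment), and it was higher in backfat in 4 of 5 boars. Without the backfat library of boar 67 the difference was 0.63 (exact permutation test, p = 0.0873), and without the liver library of boar 67, 69 or 72 the p was 0.0794, 0.0952 or 0.0873. On the boar pairs an exact sign-flip test gave p = 0.188. The call of this difference therefore depended on single libraries.

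HAMP (ENSSSCG00000035436, chr6:44785863-44787303), encoding hepcidin, varied most between boars in liver. It was at 37.9, 6.78, 4.27, 32.7 and 10.4 CPM in liver of boars 65, 67, 69, 71 and 72, a span of 8.87-fold (5.59-fold without boar 69) and a coefficient of variation of 0.851, against a median of 0.330 over all genes tested. In backfat it was at 0.801, 0.534, 0.0168, 0.613 and 1.22 CPM, from 1 to 71 read pairs. The log2 fold change was -4.84 (SE 0.82, FDR = 0.000288), and the lowest liver library was 3.50-fold above the highest backfat library. That distance was 5.56-fold without the liver library of boar 69 and 5.33-fold without the backfat library of boar 72.

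The promoter of HAMP is the known meeting point of the BMP and inflammatory signals that set hepcidin, and is shown for that reason. The 250 bases upstream of its RefSeq start, chr6:44785613-44785862 on the plus strand, hold 1 copy of GGCGCC, the core of a BMP-responsive element, from base -107, and 1 copy of TTCNNNGAA, the pattern bound by STAT factors, from base -95, where base -1 is next to the start. Both patterns read the same on both strands, do not overlap each other here and are in capitals.
HAMP promoter: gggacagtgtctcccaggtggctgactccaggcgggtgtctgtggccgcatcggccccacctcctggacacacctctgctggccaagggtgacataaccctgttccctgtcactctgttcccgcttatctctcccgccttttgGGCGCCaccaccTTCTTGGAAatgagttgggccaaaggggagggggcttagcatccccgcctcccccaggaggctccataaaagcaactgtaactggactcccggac
GGCGCC was present in 15.7% and TTCNNNGAA in 6.38% of 20664 promoters of this length. Neither was found in such a window of the other listed genes, which says only that these letters are not in it.

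HMOX1 (ENSSSCG00000039745, on an unplaced scaffold of Sscrofa11.1), encoding the inducible heme oxygenase, was the closest between the tissues. It was at 197, 134, 112, 160 and 147 CPM in liver and at 52.1, 72.1, 27.9, 48.0 and 90.1 CPM in backfat. The log2 fold change was -1.37 (SE 0.28, FDR = 0.00132), which passed the FDR threshold but not the threshold of 2, and when scaled by library size only it was -0.66 (FDR = 0.0658). Red cell markers, of which 5 of 8 had a row, summed without TMM to between 135 and 590 CPM in backfat and to between 64.0 and 1325 CPM in liver. The sums were highest in backfat of boar 72, as HMOX1 was, and in liver of boar 67, where HMOX1 was not the highest. Most of each highest sum was HBB, which reached 550 CPM in backfat and 1185 CPM in liver. HBM, ALAS2, SLC4A1 and AHSP were instead highest in backfat of boar 65, so the peak in boar 72 rests on HBB. The part of the red cell markers in the levels of HMOX1 was not tested.

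HMOX1 counts per count of HMOX2, the constitutive heme oxygenase, were 1.25, 1.37, 0.551, 1.04 and 2.01 in backfat and 1.02, 0.486, 0.697, 0.632 and 0.615 in liver. HMOX2 exceeded HMOX1 in 4 of 5 liver libraries and in 1 of 5 backfat libraries. The log2 ratio was 0.20 ± 0.69 (SD, n = 5) in backfat and -0.58 ± 0.39 in liver, and the difference of 0.78 was not significant (exact two-sided permutation test, p = 0.0714, also after adjustment). Without the backfat library of boar 69 it was 1.04 (exact permutation test, p = 0.0159) and without the liver library of boar 65 it was 0.93 (p = 0.0476 by the same permutation test).

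**Figure D4:**
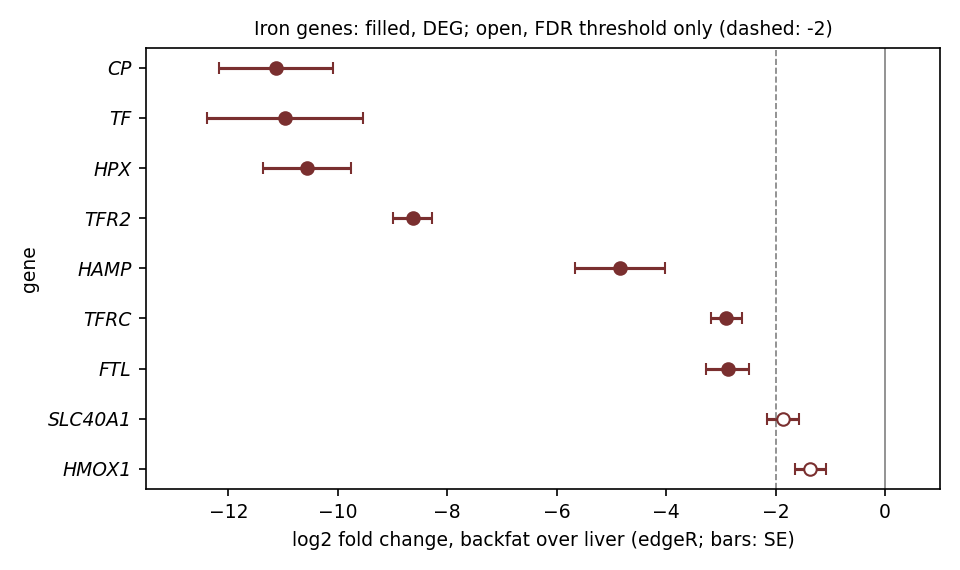
Log2 fold change of backfat over liver for the 9 genes, from edgeR with bars of 1 SE, where a negative value means higher in liver. CP, TF, HPX, TFR2, HAMP, TFRC and FTL (filled) lie beyond -2, and SLC40A1 and HMOX1 (open) between -2 and 0.

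To compare levels between genes, CPM was divided by the exon length of each gene in the table. In liver FTL was at 5174 ± 1106 CPM per kb (SD, n = 5), HPX at 3585 ± 2011 and TF at 3375 ± 2441, and the ranges of these 3 neighbours overlapped. TF was then apart from TFR2, at 116 ± 21.3 CPM per kb. TFR2, CP (90.3 ± 66.5), SLC40A1 (54.9 ± 14.2), HMOX1 (32.5 ± 6.90), TFRC (22.0 ± 9.19) and HAMP (8.74 ± 7.43) followed, each overlapping the next in range. The exon length of HAMP in the table, 2107 bases, is longer than the whole RefSeq gene. With RefSeq exon lengths (399 bases for HAMP) HAMP was at 46.1 CPM per kb and still the lowest of the 8 genes with a single RefSeq gene. TFRC was next at 52.2, and SLC40A1 moved above CP, at 113 and 105 CPM per kb. The RefSeq model of TFRC has 2383 exon bases and no 3′ UTR, but its read pairs were counted over 5643 bases. Its level by RefSeq length may therefore be too high, and the order of HAMP and TFRC is not settled.

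In backfat FTL was at 706 ± 221 CPM per kb (SD, n = 5), apart from SLC40A1 at 15.0 ± 6.13 and HMOX1 at 12.6 ± 5.16, which overlapped. HMOX1 was apart from TFRC at 2.95 ± 0.666. TFRC, HPX (2.37 ± 1.71), TF (1.69 ± 2.88), HAMP (0.302 ± 0.207) and TFR2 (0.291 ± 0.0941) each overlapped the next in range, and CP was the lowest at 0.0401 ± 0.0522, apart from TFR2. Without the backfat library of boar 69 HPX was at 1.62 ± 0.321, TF at 0.400 ± 0.0146 and CP at 0.0173 ± 0.0133 CPM per kb (SD, n = 4). The range of HPX was then 1.28 to 2.01 CPM per kb, apart from TFRC (2.23 or more) and from TF (0.412 or less). The overlaps of HPX with TFRC and TF therefore rested on that library. With RefSeq exon lengths HMOX1 moved above SLC40A1 in backfat, at 37.5 and 31.1 CPM per kb. HAMP was then at 1.60 and TFR2 at 0.458 CPM per kb, and the ranges within each of these pairs still overlapped. Ferritin, ferroportin and heme oxygenase thus stood above both receptors in backfat, and in liver FTL stood beside HPX and TF, with CP far below them.

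Between boars HAMP, CP, TF and HPX varied widely in liver, with coefficients of variation of 0.851, 0.737, 0.723 and 0.561. The median coefficient of variation of the 9 genes was 0.417 in liver, against 0.330 over all genes tested, and 0.410 in backfat, against 0.232. Without the library of boar 69 these medians were 0.300 against 0.328 in liver and 0.296 against 0.209 in backfat, so that in liver the order of the medians rested on that library. TF, TFRC and CP had the same order of boars in liver (69, 65, 72, 71, 67 from high to low), and FTL had exactly the reverse order. This order was not particular to them, and SLC11A2 and CPOX of the lists described below also had it. Along it the mitochondrial share of the liver counts rose, at 6.38%, 6.97%, 11.9%, 20.2% and 44.5%. The part of that share in the order was not tested. HAMP and HMOX1 shared another order (65, 71, 72, 67, 69). In backfat no pair of the 9 genes shared an order. The liver library of boar 67 was the lowest for 6 of the 9 genes and the highest for FTL. With 5 libraries that share their scaling factors these orders are descriptions, and no correlation was calculated.

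Other genes of iron metabolism were taken from 6 lists of 72 genes, of which 66 had a row in the table and 63 were tested. Of the 63 genes, 15 were DEGs higher in liver (23.8%) and 5 were DEGs with a higher level in backfat (7.94%), beside the 11.2% and 11.1% of all genes. With library size alone 7 were called towards liver and 8 towards backfat, where the median of all genes moved to 0.71 from 0.000140 on the log2 scale and the DEGs of all genes from 1819 in liver and 1814 in backfat to 1340 and 2874. Of the 20 DEGs, 8 were then lost, all of them higher in liver: FURIN, IL6R, SLC11A2, ALAD, CPOX, HMOX2, SLC46A1 and FDX1. ACVR2A, SMAD4 and STEAP2 were gained towards backfat. The median log2 fold change over the 63 genes was -0.58.

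Of 21 tested genes for the control of hepcidin, 4 were DEGs higher in liver, 1 was higher in backfat, 8 passed the FDR threshold only and 8 did not pass. Among all genes tested, 11.2% were DEGs higher in liver and 11.1% DEGs higher in backfat. At the FDR threshold alone 7 of the 21 were higher in liver and 6 in backfat, beside 27.0% and 28.0% of all genes. HJV, encoding hemojuvelin, the BMP co-receptor, was at 172, 46.3, 202, 144 and 149 CPM in liver and at 0.316, 0.229, 0.471, 0.0721 and 0.0343 CPM in backfat (log2 fold change -9.27, SE 0.65, FDR = 1.75e-07). Its order of boars in liver was that of TF, TFRC and CP. TMPRSS6, the protease known to cut hemojuvelin, was at 235, 220, 239, 366 and 298 CPM in liver and at 4.36, 2.73, 2.17, 4.20 and 3.64 CPM in backfat (log2 fold change -6.31, SE 0.29, FDR = 7.64e-09). The interleukin 6 receptor IL6R had a log2 fold change of -2.06 (SE 0.23) and SMAD9, one of the BMP signal transducers, of 2.22 (SE 0.43), higher in backfat. With library size alone IL6R was at -1.31. HFE, BMP6, BMP2 and NEO1, which also act in this pathway, had log2 fold changes of -0.23, 0.18, 0.16 and 0.02 and did not pass. IL6R, at -1.96 without the backfat library of boar 71, at -1.97 without the liver library of boar 71 and just under the threshold without the backfat library of boar 69, and SMAD9, at 1.99 without that liver library, then missed the threshold of 2.

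Genes of cellular iron traffic were divided, with 3 DEGs towards liver and 4 towards backfat among the 13 tested, beside 11.2% and 11.1% of all genes. STEAP1, a metalloreductase of the STEAP family, was at 2.61, 6.88, 2.74, 6.87 and 9.38 CPM in backfat and had 1 and 3 counts in the liver of boars 65 and 67 and none in the other 3. Its fitted log2 fold change of 7.94 (SE 0.76, FDR = 2.46e-06) rests on those few counts and was 9.33 without the liver library of boar 67. SLC39A14, a carrier for iron that is not bound to transferrin, was at 334, 215, 399, 192 and 209 CPM in liver and at 25.7, 21.2, 24.0, 25.6 and 28.8 CPM in backfat (log2 fold change -3.43, SE 0.25, FDR = 2.25e-07). HEPH, encoding hephaestin, a copper oxidase related to ceruloplasmin, was higher in backfat, at 1.40 ± 0.270 CPM against 0.176 ± 0.149 (SD, n = 5 each; log2 fold change 2.96, SE 0.59). LCN2, encoding lipocalin 2, which binds iron carried by siderophores, was also higher in backfat, at 13.1 ± 4.57 against 1.74 ± 1.06 CPM (log2 fold change 2.91, SE 0.46). The copper oxidases were thus on opposite sides, with CP higher in liver and HEPH higher in backfat at a low level.

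**Figure D5:**
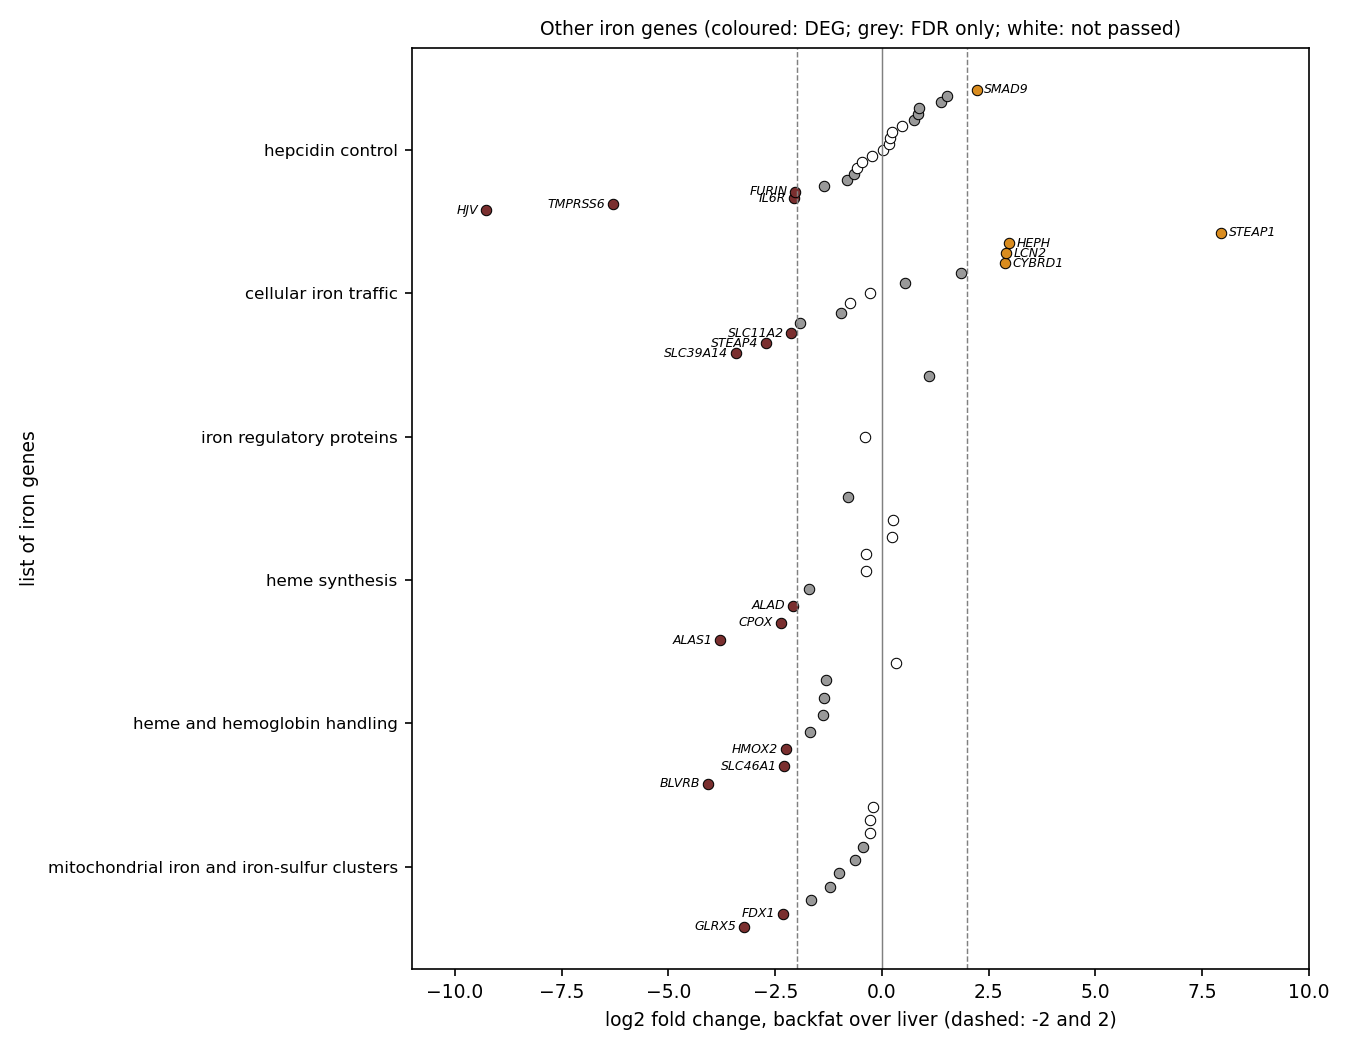
Log2 fold change of backfat over liver for the 63 tested genes of the 6 lists, 1 point per gene, with DEGs higher in liver in brown and named, DEGs higher in backfat in orange and named, genes past the FDR threshold only in grey and the others in white. The 5 DEGs higher in backfat belong to hepcidin control and cellular iron traffic, and the other 4 lists hold none.

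No iron regulatory protein gene was a DEG. ACO1, encoding IRP1, was at 308, 262, 250, 330 and 289 CPM in backfat and at 181, 133, 153, 105 and 102 CPM in liver, without overlap (log2 fold change 1.10, SE 0.21, FDR = 0.000617). IREB2, encoding IRP2, was higher in liver, with a log2 fold change of -0.81 (SE 0.19, FDR = 0.00303), but scaled by library size only it was at -0.083 (FDR = 0.758). FBXL5, which targets IRP2 for degradation, did not pass, at -0.40 (FDR = 0.0509). The genes with an IRE-like hairpin shown above, FTL, SLC40A1 and TFRC, were all higher in liver as mRNA, and protein was not measured.

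In heme synthesis 3 of 8 genes were DEGs higher in liver and none was a DEG higher in backfat, beside 11.2% and 11.1% of all genes. ALAS1, the first and rate-limiting enzyme outside red cells, was at 696, 593, 447, 604 and 772 CPM in liver and at 35.2, 28.9, 40.3, 77.9 and 43.4 CPM in backfat (log2 fold change -3.79, SE 0.31, FDR = 6.7e-07). CPOX and ALAD, which catalyse later steps, had log2 fold changes of -2.37 and -2.08 (ALAD was at -1.94 without the backfat and -1.98 without the liver library of boars 67 and 71, respectively), whereas UROD, PPOX and FECH did not pass. Scaled by library size only, CPOX was at -1.72 and ALAD at -1.37, which left ALAS1 as the DEG of this list. In heme and hemoglobin handling 3 of 8 were DEGs higher in liver, beside 11.2% of all genes, and 4 more passed the FDR threshold in the same direction. At the FDR threshold alone 7 of the 8 were higher in liver, beside 27.0% of all genes. BLVRB, a biliverdin reductase, was at 277, 158, 246, 289 and 249 CPM in liver and at 15.2, 7.69, 12.6, 15.2 and 21.3 CPM in backfat (log2 fold change -4.08, SE 0.29, FDR = 2.03e-07). SLC46A1, a carrier of folate and heme, and HMOX2 had log2 fold changes of -2.29 and -2.25, and of -1.54 and -1.51 when scaled by library size only.

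Among 10 tested genes of mitochondrial iron and iron-sulfur clusters, 2 were DEGs higher in liver, beside 11.2% of all genes. A further 5 passed the FDR threshold in the same direction, of which SLC25A28 and NFS1 turned to 0.30 and 0.050 when scaled by library size only. At the FDR threshold alone 7 of the 10 were higher in liver, beside 27.0% of all genes. GLRX5, a glutaredoxin that transfers iron-sulfur clusters, was at 177 ± 95.8 CPM in liver and at 19.0 ± 4.08 CPM in backfat (SD, n = 5 each, with no overlap; log2 fold change -3.22, SE 0.37, FDR = 1.12e-05). FDX1, a ferredoxin, had a log2 fold change of -2.32 (SE 0.30), and of -1.58 when scaled by library size only. SLC25A37, FDX2 and CISD1 of this list, HP and LRP1 of heme handling and PCBP1 of iron traffic were not analysed here, and ERFE, HEPHL1 and FTMT had too few counts to be tested.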

How the data were processed

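Read pairs were counted per gene by the authors, who aligned RNA-seq reads to Sscrofa11.1 with HISAT2 and, per the file headers, counted with featureCounts 2.0.1 and gene models of Ensembl release 99. The deposited values are raw counts. Genes with reads shared between close relatives may be undercounted. The tests were run in edgeR 4.0.16 under R 4.3.3 (filterByExpr, TMM, glmQLFit and glmQLFTest, tissue as the only term), and 16275 of 31907 genes were tested. DESeq2 1.42.0 and limma 3.58.1 (voom) were alternatives. The SE is the size of the log2 fold change over the square root of F. Ratios used counts with 0.5 added and an exact permutation test over 252 arrangements.

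The named genes were all listed members and, from each of 6 lists, up to 4 DEGs with the largest change. Other genes of the lists were named after their values were seen. The members and lists were chosen with earlier results of these data known. A planned ratio of FTH1 to FTL was not run, and 1 gene of the lists is not reported here by name. Libraries were paired by the number in the column names, which was taken to mark the same animal and is not explained in the labels. Same-boar deviations from the tissue means correlated at 0.220, 0.0918, 0.0270, 0.171 and 0.126. The backfat library matched the liver library of its own number best for 65, 71 and 72, but not for 67 and 69. The labels do not state how the replicates of a tissue were sampled, so p-values measure the spread between these libraries. Sequences and positions were taken from RefSeq. Bisulfite calls without genomic position and the 10 bisulfite samples were not used here.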

Additional observations from a re-analysis of the deposited data

Results flagged for a closer look

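In backfat 3 values were set apart from the other 4 libraries of their group by Dixon's criterion, all in the library of boar 69: TF at 27.5 CPM, with 1.66 CPM in the next library, HPX at 9.20 CPM, with 3.44 in the next, and CP at 0.908 CPM, with 0.214 in the next. The gap over the range was 0.995, 0.821 and 0.780, against a critical value of 0.71. Of 24 groups of 5 values examined, 3 were set apart, and chance sets apart about 1 in 20. The same library had the highest hepatocyte marker sum of the backfat, at 713 CPM without TMM. The part of hepatocyte RNA in these values was not tested.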

How the results depend on the processing

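All 9 genes were higher in liver under every alternative that could be fitted, and 176 of 178 alternative fold changes stayed on the same side of the thresholds, the other 2 being those of SLC40A1 without a library of boar 67. The number of DEGs higher in liver was between 5 and 8. It was 5 when 10 counts were required in every library, which left CP and HAMP unfitted, and 7 with both doubted libraries left out. The number past the FDR threshold was between 7 and 9 (8 with library size alone), and no DEG was higher in backfat. Fitted with a replicate block by boar, no call among the 9 genes changed. The paired sign-flip test left the differences of 5.84 (TFRC to TFR2) and 0.93 (SLC40A1 to TFRC) past no threshold, which 5 pairs cannot reach. Leaving out single libraries, the differences ranged from 5.65 to 6.04 for TFRC to TFR2, from 0.63 to 1.16 for SLC40A1 to TFRC and from 0.57 to 1.04 for HMOX1 to HMOX2. Over the 6 lists glmTreat called 6 genes higher in liver and 2 in backfat, against 15 and 5, and the filter of 10 counts in every library left 14 and 2. The level of HAMP moved from 8.74 to 46.1 CPM per kb with the RefSeq length, chosen after seeing the data. The ratio of FTH1 to FTL was not run. Counts of 1 to 71 limit the backfat values of CP and HAMP.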
